A study of Mus musculus with 32 samples.

Results

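The comparison set the eye against the brain of sighted C3H mice: for each gene it asked whether the ratio of sighted over control RNA differed between the 2 organs. The members were 24 of the 32 arrays of the series, 12 from eye and 12 from brain, chosen by their titles. Of 17053 features, which are genes with a symbol or unnamed probes, 15499 were measured in both organs and tested. Of these, 8362 were genes with a symbol. Each array was a 2-colour cDNA array on which whole-organ RNA of a sighted C3H mouse was hybridised together with RNA of control C3H mice of the same organ.

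The sighted animals were males of a C3H line that the series' design text calls seh, 6 animals in all. The controls were male C3H.pde6b- mice, and their RNA was 1 pool from 6 mice for each organ. The eye pool and the brain pool came from different mice. The age of the animals is not given in the sources used here. All groups shared the C3H background, and no treatment is named. Every difference described here is therefore measured against a single pooled control sample an organ, and the spread between control animals enters no test. In whole-organ RNA, fewer cells of a type and less RNA per cell cannot be told apart.

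C3H mice commonly carry a mutation of Pde6b, which encodes a subunit of the rod phosphodiesterase that closes the light-sensitive channels of rods. Without the enzyme rods die early in life, and the retina keeps its inner layers and for a time its cones. The eye is thus the organ in which the genotype is known to act, and the brain receives its output through the optic nerve. Lens, cornea, eye muscle, blood and pigment epithelium are also part of a whole eye, while a whole brain may be taken with or without the pituitary gland.

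Arrays with neighbouring numbers carried opposite dyes, and each such set of 2 was averaged to a replicate, so that an organ had 6 replicates. Nothing in the labels ties an array to an animal. The p-values therefore describe the spread among these replicates, and part of it may be technical. Values are on a log2 scale, sighted over control, so that 1 unit is a doubling. The direction of the ratio is likely, not stated. The 24 probes for rod and outer segment genes had medians of 3.29 to 3.67 on the 6 eye arrays that carried sighted RNA in Cy5, and of -3.25 to -2.49 on the Cy3 arrays. For brain, the direction rests on the dye effect of each probe, the part of its value that stays when both dye orientations are averaged. Between the organs this dye effect correlated at a Spearman value of 0.33 over 16289 probes. Brain array 3 is labelled Cy5 in both channels, and its sighted RNA was taken as Cy5. The source of brain array 5 is named without its organ. Missing values made up between 1.62% and 5.10% of an eye array and between 1.01% and 5.05% of a brain array, and arrays of the same dye correlated at 0.32 to 0.53 in eye and at 0.10 to 0.28 in brain. The arrays give ratios only, so no marker gene has a level of its own in either organ.

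The promoters of the genes with the largest differences are shown first, so that the letters before their starts can be set beside the values below. Crx, the homeodomain factor of photoreceptors, is known to bind a core of the letters TAATCC. This core was searched on both strands in the 250 bases before the start of each gene in RefSeq promoters of the assembly GRCm38.p6. Of the 10 genes with the largest positive difference, 8 had a promoter in the table, and 4 of these held the core. Capitals mark the core, or its reverse complement where it lies on the other strand.
Sag: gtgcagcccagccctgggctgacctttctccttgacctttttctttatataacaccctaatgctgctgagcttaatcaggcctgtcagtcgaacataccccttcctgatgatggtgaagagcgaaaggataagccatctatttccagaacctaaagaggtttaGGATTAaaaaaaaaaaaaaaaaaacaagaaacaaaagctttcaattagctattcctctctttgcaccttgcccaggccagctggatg
Cngb1: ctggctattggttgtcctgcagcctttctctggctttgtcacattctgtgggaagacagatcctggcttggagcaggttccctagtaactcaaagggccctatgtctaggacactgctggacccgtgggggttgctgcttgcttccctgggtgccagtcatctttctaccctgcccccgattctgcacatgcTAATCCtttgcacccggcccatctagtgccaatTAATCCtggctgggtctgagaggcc
Nxnl2: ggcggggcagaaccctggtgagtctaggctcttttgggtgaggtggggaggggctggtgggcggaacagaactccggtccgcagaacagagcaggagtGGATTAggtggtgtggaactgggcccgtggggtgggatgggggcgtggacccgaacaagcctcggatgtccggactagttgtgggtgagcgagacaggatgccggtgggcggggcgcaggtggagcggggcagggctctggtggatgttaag
Pcare: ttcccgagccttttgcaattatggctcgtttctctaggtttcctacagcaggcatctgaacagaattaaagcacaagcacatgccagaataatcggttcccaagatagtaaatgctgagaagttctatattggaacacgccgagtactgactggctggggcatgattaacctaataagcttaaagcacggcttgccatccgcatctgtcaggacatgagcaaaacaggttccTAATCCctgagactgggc
The Sag stretch is chr1:87803430-87803679 on the plus strand, and its core lies 87 to 82 bases before the start. The Cngb1 stretch is chr8:95306586-95306835 on the minus strand, with cores 58 to 53 and 25 to 20 bases before the start. The Nxnl2 stretch is chr13:51170775-51171024 on the plus strand, with the core 152 to 147 bases before the start. The Pcare stretch is chr17:71752906-71753155 on the minus strand, with the core 18 to 13 bases before the start. No TAATCC was in the windows of Esrrb, Cdhr1, Rom1 and Vtn. The core was present in 6.25% of all 32851 promoters, in 5.13% of those of the tested genes, in 7.32% of those of genes with a higher eye ratio and in 3.69% of those of genes with a lower one. Of the 51 promoters of genes with a difference above 2, 8 held it, or 15.7%. These matches are a description of the letters and not of binding.

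The sighted over control ratio differed widely between eye and brain, and most of the difference lay in the eye ratio. Rod genes had the largest positive differences, up to a log2 difference of 6.43, while fibroblast growth factor 7 and globin genes were among the lowest. Of 15499 genes, 2723 passed an adjusted p of 0.05 in limma, or 17.6%. The eye ratio was higher than the brain ratio for 1682 genes, or 10.9%, and lower for 1041, or 6.72%. Among the genes that passed, the eye mean was larger in size than the brain mean for 2668, or 98.0%. The median size of their mean ratio was 0.50 in eye and 0.06 in brain, against 0.15 and 0.06 over all genes. The median difference over all genes was 0.03. The replicates of both organs did not overlap for 1729 genes, or 11.2%.

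Tested against 0 in the same genes, the eye ratio passed for 4222 genes, 27.2% of those tested, and the brain ratio for 1, or 0.00645%. That gene was growth hormone. At an unadjusted p under 0.05 the brain ratio gave 623 genes, or 4.02%. The spread was alike in both organs, with a median SD of 0.20 in eye and of 0.20 in brain. Of the genes that passed in the eye, 1620 did not pass in the difference between organs, and their 95% intervals of the difference had a median width of 0.53, so these do not show equal ratios. Across the 15499 genes the eye and brain means had a Pearson correlation of 0.00065 and a Spearman correlation of 0.0077. Genes are not independent replicates, and the value is given as a description. Among the genes that passed in the eye, 4.45% had a brain ratio with an unadjusted p under 0.05, 92 of the same sign and 96 of the opposite sign, against 3.86% among the remaining genes.

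**Figure D1:**
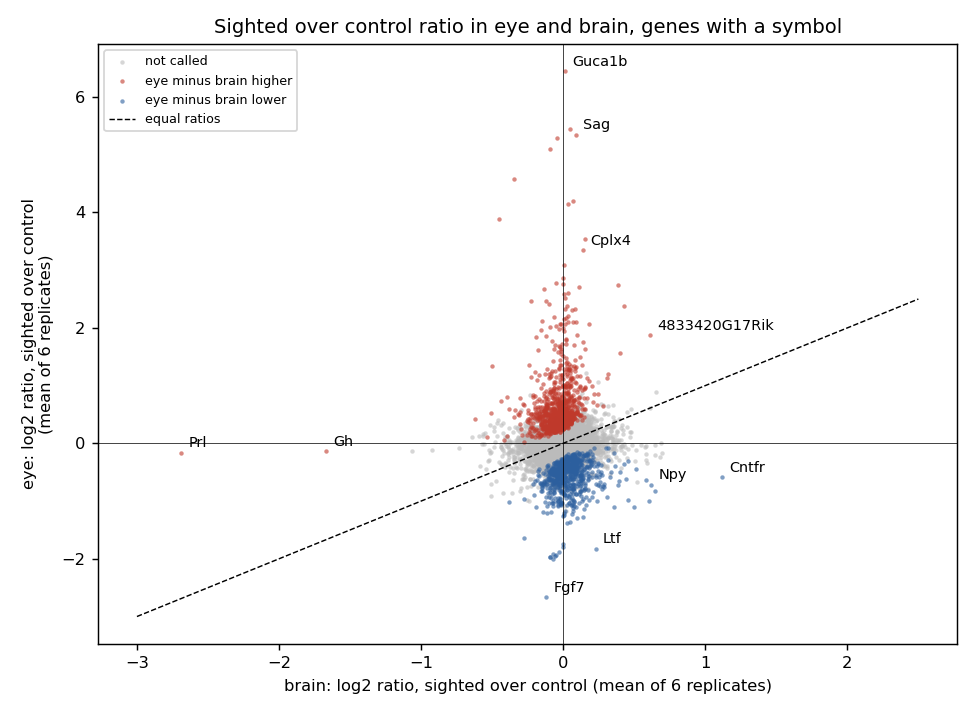
Mean log2 ratio of sighted over control RNA in brain (x axis) and eye (y axis) for the 8362 tested genes with a symbol, 6 replicates an organ; red and blue points passed an adjusted p of 0.05 in the difference, higher or lower, and the dashed line marks equal ratios. The points spread along the eye axis up to 6.45 for Guca1b, and Gh and Prl lie apart along the brain axis.

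All 6 rod phototransduction genes tested had a higher eye than brain ratio, with a median difference of 3.49 against 0.03 over all genes. These genes and those of the outer segment also served to orient the ratios, so their sign is no independent evidence of the direction. The median of the list lay between 3.14 and 3.74 in the eye replicates and between -0.10 and 0.16 in the brain replicates. Guca1b, which encodes a calcium-sensing activator of the photoreceptor guanylate cyclase, had a lowest, median and highest eye ratio of 6.24, 6.43 and 6.70, and brain ratios of -0.21, 0.01 and 0.33. The difference was 6.43 ± 0.11 (SE), or 86.2-fold, with a limma adjusted p of 1.82e-13. Its 6 eye replicates lay close together and far above all of the brain replicates.

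Sag, the rod arrestin that ends the signal of activated rhodopsin and whose promoter is printed above, had eye ratios of 5.15, 5.38 and 5.53 as lowest, median and highest, and brain ratios of -0.07, 0.10 and 0.27. Its difference was 5.26 ± 0.09 (SE), or 38.3-fold, with an adjusted p of 1.82e-13. Cngb1, the beta subunit of the rod cyclic nucleotide channel, ran from 4.62 to 5.48 in eye, with a median of 5.12, and from -0.51 to 0.25 in brain. Both genes were separated between the organs by more than 4 log2 units in every replicate. The G protein subunit genes Gnb5 and Gnb1, which are also used outside the retina, had differences of 1.78 and 0.58. Rgs9, which speeds the end of the rod response and is also a gene of the striatum, had a difference of 1.72, but its 2 probes disagreed at 0.06 and 3.38. The probes of Gnb1 differed in the same way, at 0.04 and 1.11.

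All 11 genes of the photoreceptor outer segment and cilium were higher in the eye comparison as well, with a median difference of 2.86. Nxnl2, a thioredoxin-like gene needed for photoreceptor survival, had eye ratios between 5.21 and 5.49 and brain ratios between -0.66 and 0.40, and its difference was 5.34 ± 0.16 (SE). Reep6, a membrane-shaping gene of rods, had a difference of 4.91 with 5 brain replicates, and Pcare, which helps outer segment discs to form, had 4.13. Rom1, a disc rim protein, had eye ratios from 3.91 to 4.34, brain ratios from -0.07 to 0.13 and a difference of 4.10 ± 0.09 (SE), with an adjusted p of 2.81e-12. None of these genes overlapped between the organs. Cdhr1, a photoreceptor cadherin, was steady in eye, from 3.74 to 4.08, and scattered in brain, from -2.90 to 1.14. Its difference of 4.34 therefore had an SE of 0.50. The smallest difference of the list was 0.95, of the ciliary gene Bbs4.

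All 4 photoreceptor transcription factor genes tested passed, and Esrrb, a nuclear receptor gene of rods, stood apart from the others. It had eye ratios of 4.87, 5.51 and 6.08 as lowest, median and highest, brain ratios from -0.64 to 0.34 over 5 replicates, and a difference of 5.39 ± 0.23 (SE). Mef2c, Mef2d and Thrb, which are active in many tissues, had 0.64, 0.57 and 0.47. Each had 1 of 2 probes past the threshold, with probe differences of 0.38 and 0.91 for Mef2c, 0.16 and 0.97 for Mef2d and 0.23 and 0.72 for Thrb. Vtn, which encodes vitronectin, a blood and matrix protein also made by photoreceptors, completed the 10 largest differences with 3.38.

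**Figure D2:**
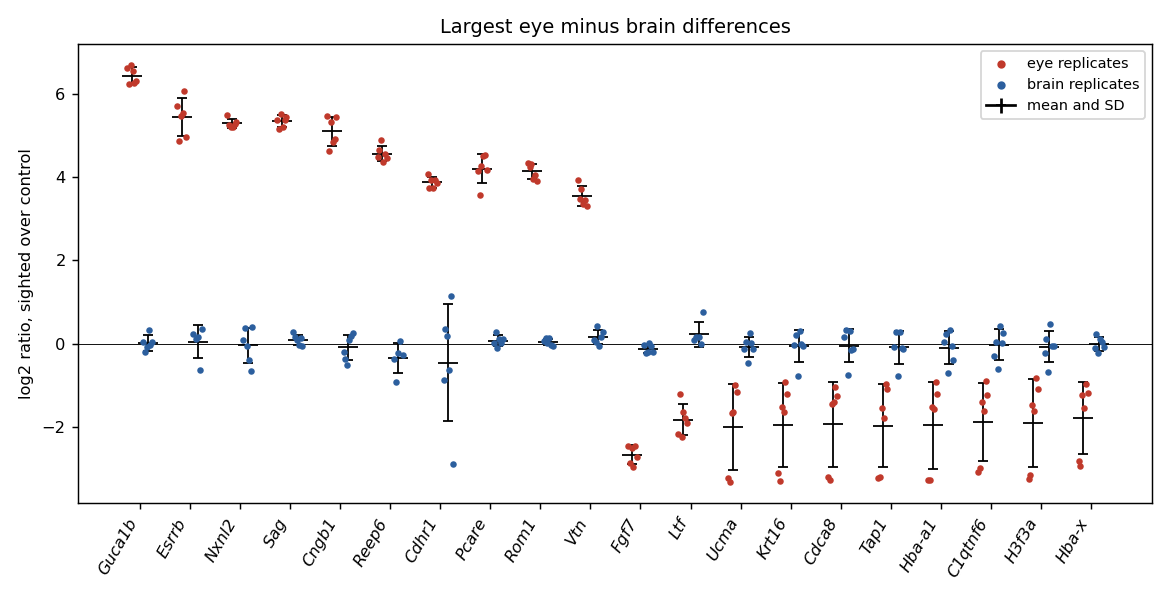
Log2 ratio of sighted over control RNA in each replicate (points) with mean and SD (black) for the 10 highest and the 10 lowest eye minus brain differences among genes that passed and did not overlap. Eye points of the 10 higher genes lie at 3.32 or above; among the lower genes, Fgf7 and Ltf have compact eye points while the other 8 genes each have 2 eye points well below the remaining 4.

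Few genes passed in the short lists of the other retinal neurons and of the visual cycle and pigment epithelium. None of the 3 cone genes passed in limma, and 2 had an unadjusted p under 0.05: Gnb3 had a difference of 0.31 (95% interval 0.06 to 0.57), Rxrg 0.22 (0.01 to 0.43) and Gngt2 -0.15 (-0.62 to 0.33). Tested in the eye alone, 2 of the 3 cone genes passed as higher. Of 4 bipolar cell genes 0 passed in the difference, and 1 had an unadjusted p under 0.05. Of 9 amacrine and horizontal cell genes 1 passed, and 1 of 6 ganglion cell genes. These were the calcium buffer Calb1, with 0.37, whose call was lost without any of 8 replicates taken singly, and the RNA-binding gene Rbpms, with -0.52. Of the 4 visual cycle and pigment epithelium genes only Rdh11, a retinol dehydrogenase that photoreceptors also use, passed, with 0.97 ± 0.10 (SE). Shares of called genes of 10.9% and 6.72% are to be read beside these counts. Many defining cone and bipolar genes, the cone opsins among them, have no value here.

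Of 18 synapse genes, 6 were higher (33.3%) and 0 lower, against 10.9% and 6.72% over all genes. Most of the 18 are used at synapses in general, and 12 did not pass. The median difference was 0.17 and the lowest -0.19. Cplx4, the complexin of the photoreceptor ribbon synapse, had eye ratios of 3.16, 3.32 and 3.50 and brain ratios of -0.11, 0.09 and 0.41 as lowest, median and highest, and a difference of 3.21 ± 0.11 (SE), with an adjusted p of 1.39e-10. Stx3, the syntaxin of ribbon synapses, had 1.08 with overlapping replicates, the vesicle gene Syp 0.66 and the kinase gene Camk2a 0.59. The remaining complexins Cplx1, Cplx2 and Cplx3 did not pass, at 0.21, -0.19 and -0.01. Neurotransmitter receptors and transporters gave 0 of 11 genes at the adjusted threshold of limma and 2 at an unadjusted p under 0.05.

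Elovl4, which makes the very long fatty acids of outer segment discs, had eye ratios from 2.47 to 2.94 and brain ratios from -0.12 to 0.38, and a difference of 2.60 ± 0.11 (SE). Fbln1, a matrix gene, was the single higher gene of 29 in its list, with eye ratios from 1.77 to 2.23 and a difference of 2.01. Of 21 genes of the cilium, tubulin and motors, 7 were higher (33.3%) and none lower, against 10.9% and 6.72% over all genes. The other 14 did not pass, and the median was 0.11. The higher count was 4 without eye replicate 3 or without brain replicate 6. The Bardet-Biedl gene Bbs2 had 1.26, the microtubule gene Map1b 1.12, and Ift81 and Ift88, which carry cargo along the cilium, 0.67 and 0.46. Of 31 glycolysis and citrate cycle genes, 6 were higher (19.4%) and 3 lower (9.68%), against 10.9% and 6.72% over all genes. Among the higher were Hk1 with 1.36 ± 0.08 (SE), Pkm with 0.80 and Ldha with 0.69, the enzymes at the start and end of glycolysis. Their eye and brain replicates did not overlap. Among the 3 lower genes were the muscle isoform genes Pfkm and Eno3, at -0.55 and -0.61.

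Lens genes varied between eye replicates and moved in both directions. Of 11 tested, 5 were higher (45.5%) and 1 lower (9.09%), against 10.9% and 6.72% over all genes, with a median difference of 0.67. The list's median lay at 0.08 and 0.15 in eye replicates 1 and 5 and between 0.75 and 0.92 in the other eye replicates. Crybb2, a major beta crystallin, had eye ratios from 0.81 to 1.72 and a difference of 1.85, with 1 of 5 brain replicates at -1.90. With values above 15 kept its difference was 3.39 and did not pass. With the brain sign turned its difference was 0.84 and did not pass (limma adjusted p = 0.105). Crybb3 went the other way, with a difference of -0.55. Crygs had nearly the same mean in both organs, 0.62 in eye and 0.61 in brain, with a difference of 0.01 (95% interval -0.55 to 0.56).

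**Figure D3:**
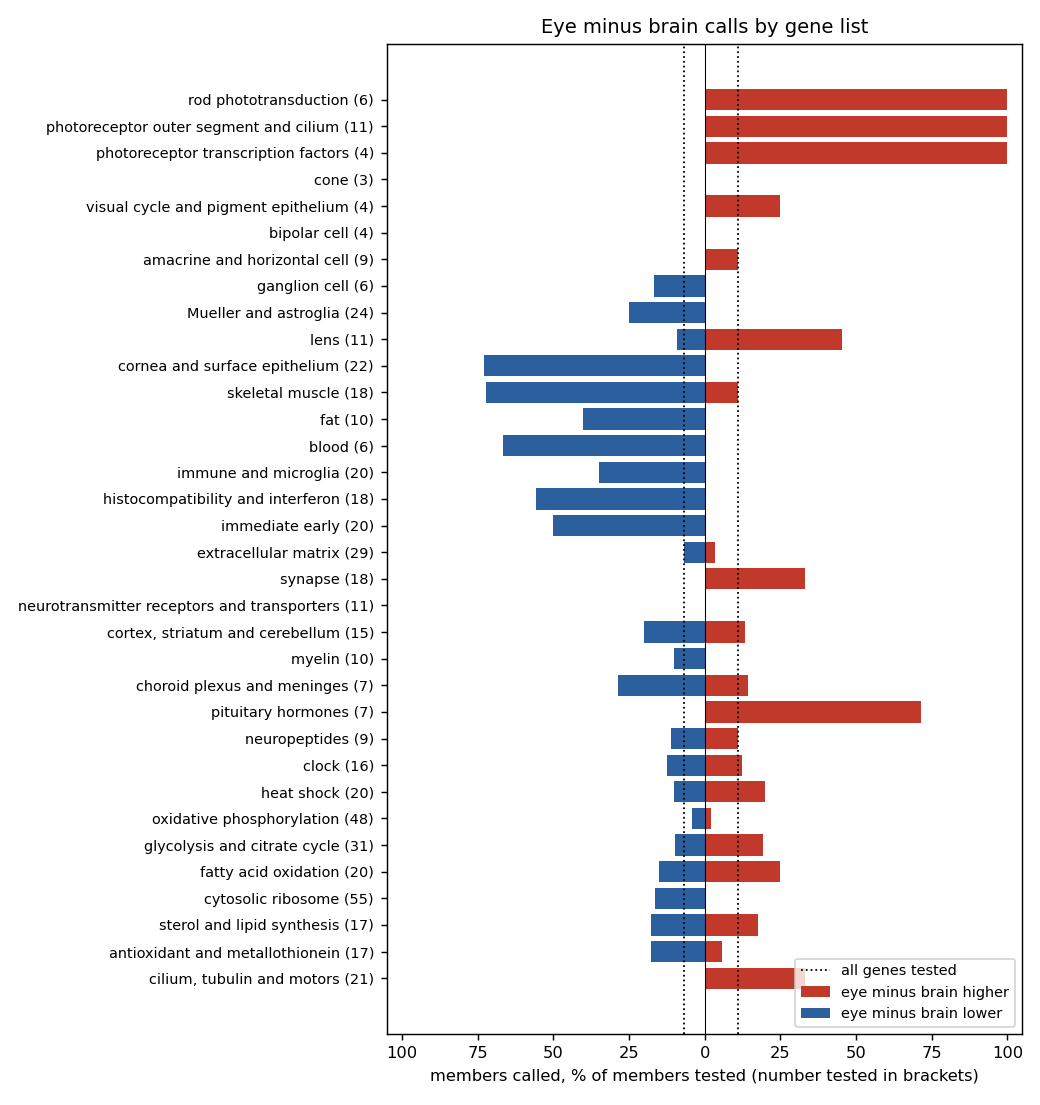
Share of the tested members of each of 34 gene lists whose eye minus brain difference passed an adjusted p of 0.05, higher (red, to the right) or lower (blue, to the left), with the number tested in brackets and the shares over all genes, 10.9% and 6.72%, as dotted lines. Photoreceptor lists reach 100% higher, and cornea, skeletal muscle and blood have the largest lower shares.

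Lower ratios in eye than in brain were frequent in the lists of cornea, skeletal muscle, blood, histocompatibility and immediate early genes. Counts of these and the lists that follow stand beside shares over all genes of 6.72% lower and 10.9% higher. The lowest difference of all named genes was that of Fgf7, an epithelial growth factor made by connective tissue. Fgf7 had eye ratios of -2.97, -2.62 and -2.45 and brain ratios of -0.22, -0.13 and 0.00 as lowest, median and highest. Its difference of -2.55 ± 0.11 (SE) was 5.84-fold, with an adjusted p of 1.19e-09, and no eye replicate came near the brain replicates. Ltf, which encodes lactoferrin, an iron-binding protein of tears and neutrophils, followed with -2.05 ± 0.19 (SE), eye ratios from -2.24 to -1.21 and brain ratios from -0.01 to 0.75 over 5 replicates.

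The other 8 genes of the 10 lowest had almost the same profile over the eye replicates as the alpha globin gene Hba-a1. Hba-a1 stood at -3.29 and -3.27 in eye replicates 1 and 2, and at -1.53, -1.56, -0.92 and -1.21 in the other 4, against -0.70 to 0.32 in brain. Its difference was -1.87 ± 0.40 (SE), with an adjusted p of 0.00487, and -1.21 without eye replicates 1 and 2. Around Hba-a1, the root mean square distance over the 6 eye replicates was 0.08 for Ucma, 0.07 for Krt16, 0.10 for Cdca8, 0.12 for Tap1, 0.15 for C1qtnf6, 0.08 for H3f3a and 0.26 for the embryonic globin Hba-x. It was 1.19 for Fgf7 and 1.10 for Ltf. Ucma is a cartilage gene, Krt16 a keratin, Cdca8 a mitosis gene, Tap1 a peptide transporter and H3f3a a histone, and whether their probes measured those genes was not tested. Without eye replicates 1 and 2 their differences lay between -1.29 and -1.18, and all of them still passed.

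**Figure D4:**
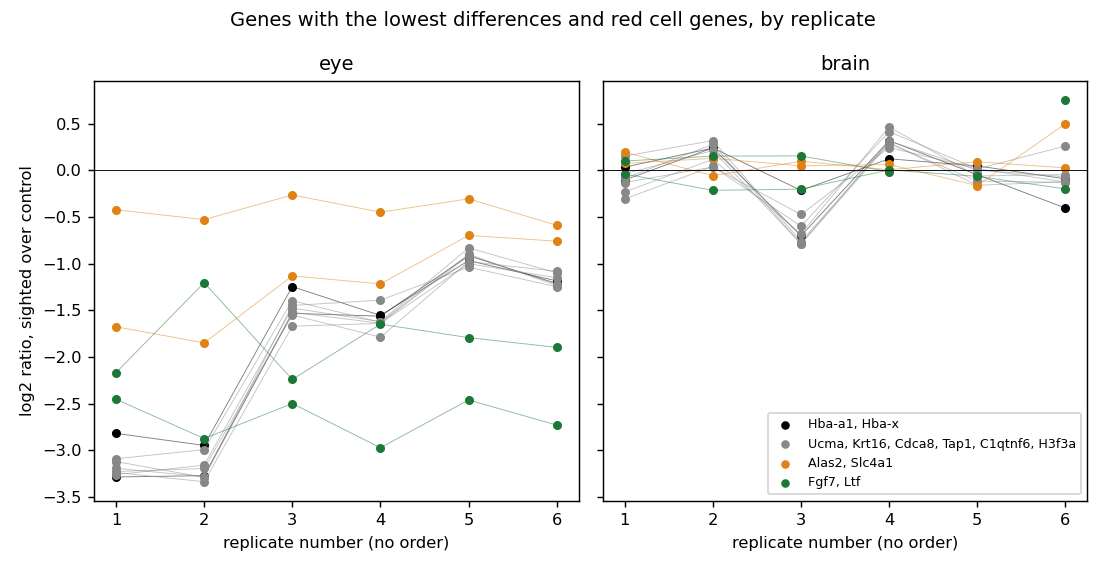
Log2 ratio of sighted over control RNA by replicate in eye (left) and brain (right) for the 10 lowest differences and the red cell genes Alas2 and Slc4a1. Hba-a1 and the grey genes coincide in eye, at -3.29 and -3.27 in replicates 1 and 2 for Hba-a1 and at -1.56 or above in the other 4, while Fgf7 and Ltf do not follow them.

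Of 6 blood genes, 4 were lower and none higher, with a median difference of -0.91. Alas2, which makes haem in red cell precursors, had eye ratios from -1.85 to -0.70, also lowest in replicates 1 and 2, and a difference of -1.28. Slc4a1, the red cell anion exchanger, had -0.53, with no such split. The red cell genes Car1 and Klf1 had -0.10 and -0.07 and did not pass.

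Cornea and surface epithelium had 16 of 22 genes lower and none higher, with a median difference of -0.89. Of the 22, 14 did not overlap between the organs, against 11.2% over all genes. The list includes Krt16, described above. Aldh3a1, a crystallin of the corneal epithelium, had eye ratios of -2.15, -1.18 and -0.92 as lowest, median and highest, brain ratios from -0.18 to 0.34 and a difference of -1.39 ± 0.19 (SE). Krt5, Krt14 and Krt15, keratins of basal epithelium, had -1.05, -1.04 and -0.76, and Krt12, the keratin of the cornea, had -1.41 with an SE of 0.42. The list's median was -1.41 in eye replicate 1 and between -0.91 and -0.60 in the other eye replicates. Skeletal muscle had 13 of 18 genes lower, with a median of -0.66 and eye replicate medians from -1.03 to -0.41. The calcium channel gene Ryr1 had -1.41, the creatine kinase Ckm -1.28 and the fast fibre gene Actn3 -1.19. Actn2 and Pvalb were the 2 higher members, at 0.96 and 0.52, and neither overlapped between organs. How much cornea, muscle or blood each eye sample and the eye pool held was not tested.

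Fat cell genes had 4 of 10 lower, with Fabp4 at -0.58. This count was 1 or 2 when eye replicate 1, 2, 3, 5 or 6 or brain replicate 1, 2, 4 or 5 was left out. Mueller and astroglial genes had 6 of 24 lower, with a median of -0.18. All 24 overlapped between the organs, while 11.2% of all genes did not. Gfap, the classical marker of glial reaction, had -0.37, Apoe -0.37, Stat3 -0.40 and Mlc1 -0.35. The 2 probes of Gfap had -0.53 and -0.20, and neither passed on its own. Without eye replicate 4, brain replicate 1 or brain replicate 4 the count was 2, 3 and 3, in that order, and without brain replicates 5 and 6 it was 1.

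Of 20 immune and microglia genes, 7 were lower and 13 did not pass, with a median of -0.27 and differences up to 0.35. Of 18 histocompatibility and interferon genes, 10 were lower and 8 did not pass, with a median of -0.62. No member of either list passed as higher. Ctss, a protease of macrophages and microglia, had eye ratios from -1.12 to -0.71, brain ratios from -0.24 to 0.54 and a difference of -0.90 ± 0.13 (SE). Lgals3, a galectin of phagocytes, had -1.06, Laptm5 -0.53 and Aif1 -0.65. The immunoproteasome gene Psmb8 had -1.02, the interferon genes Igtp and Ifi35 -0.93 and -0.77, and the class I light chain B2m -0.62. Tap1, in the globin-like group above, is also counted in this list. The complement genes C1qa, C1qb and C1qc had -0.22, -0.29 and -0.22 and did not pass.

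Immediate early genes, which respond within minutes to stimulation or handling, were lower for 10 of 20, with a median of -0.39 and none higher. Klf4 had eye ratios of -1.96, -1.16 and -0.82 and brain ratios of -0.29, 0.05 and 0.12 as lowest, median and highest. Its difference was -1.27 ± 0.16 (SE). Egr1 had -1.37 and Junb -0.98, and brain replicate 1 was the lowest brain value of both, at -1.14 and -0.50. Fos, at -0.37, did not pass. The sources used here give no time of death or order of dissection.

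The brain mean was larger in size than the eye mean for 55 of the genes that passed, 32 of them with a symbol. Prl and Gh had by far the lowest brain ratios among these. Of 7 pituitary genes, 5 had a higher eye than brain ratio (71.4%, against 10.9% over all genes). For Gh and Prl this meant a ratio below 0 in brain. Gh, growth hormone, had brain ratios of -2.27, -1.51 and -1.39 as lowest, median and highest and eye ratios of -0.41, -0.20 and 0.22. Its difference was 1.53 ± 0.16 (SE), or 2.89-fold, with an adjusted p of 1.57e-05, and its brain ratio of -1.67 ± 0.34 (SD, n = 6) was the one that passed on its own, at an adjusted p of 0.0112. All 6 brain replicates lay well below all 6 eye replicates. Without brain replicate 1, 2, 4 or 6 no brain ratio passed on its own, that of Gh included. The difference between organs of Gh passed without each single replicate.

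Prl, prolactin, had a lower brain mean still, -2.69 ± 0.81 (SD, n = 6), with replicates between -3.78 and -1.40. Its eye ratios scattered from -1.45 to 0.65 over 5 replicates, so that the organs overlapped. The difference was 2.52 ± 0.43 (SE), with an adjusted p of 0.00118, and the brain ratio alone had 0.0609. With values above 15 kept the difference was 1.23 and did not pass. Pomc, the precursor of corticotropin, had 1.05 ± 0.30 (SE), with a brain mean of -0.62 and an eye mean of 0.43. Without eye replicate 1, 3, 5 or 6 or brain replicate 2 it lost its call, at differences between 0.95 and 1.04. Brain replicate 5 was the lowest for Gh and Pomc, at -2.27 and -1.88, and stood at -3.05 for Prl. Its arrays also had the most values above 15 among the brain arrays, 218 and 201, which were set missing. Without brain replicates 5 and 6 the count of called pituitary genes was 3. Of the secretory granule genes, which neurons share, Chga and Chgb had 0.34 and 0.44 with overlap, and Scg3 had -0.01. Tshb, the thyrotropin subunit of the pituitary, had 0.03 (95% interval -0.37 to 0.43), with a brain mean of -0.12. How much pituitary tissue each brain sample held was not tested.

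The Prl promoter is printed because Prl had the lowest brain ratio of all named genes. The letters TATNCAT, the core of sites for the pituitary factor Pit-1, were searched on both strands and are in capitals.
Prl: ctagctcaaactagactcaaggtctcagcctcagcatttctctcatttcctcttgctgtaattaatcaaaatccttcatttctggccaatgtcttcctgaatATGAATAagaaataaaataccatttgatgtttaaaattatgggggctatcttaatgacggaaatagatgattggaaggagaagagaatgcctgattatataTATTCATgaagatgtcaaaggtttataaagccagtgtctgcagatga
The stretch is chr13:27057320-27057569 on the plus strand, with matches 148 to 142 and 47 to 41 bases before the start. The motif was present in 7.92% of all promoters and in 3.86% of those of the tested genes. Gh has no entry in the table.

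Opposite signs in the 2 organs were found for 1754 of the genes that passed, but for 112 alone were both ratios below an unadjusted p of 0.05. Another 26 had both ratios below it with 1 sign. Choosing genes by the difference between organs favours opposite signs by construction. Among genes chosen by the eye ratio instead, 96 had a brain ratio below that p with the opposite sign and 92 with the same sign. Npy, neuropeptide Y, had eye ratios of -1.17, -0.68 and -0.43 and brain ratios of -0.04, 0.77 and 0.99 as lowest, median and highest. Its difference was -1.33 ± 0.18 (SE), with an adjusted p of 0.000202. All of its eye replicates lay below 0 and 5 of 6 brain replicates above it. With the brain sign turned the difference was -0.093 and did not pass (adjusted p = 0.788). Ifi27l2a, an interferon-induced gene, had -1.59, with eye ratios from -2.17 to -0.59 and brain ratios from 0.15 to 1.51, and -0.39 with the brain sign turned (adjusted p = 0.39). Cntfr, a receptor for ciliary neurotrophic factor, had -1.70 ± 0.47 (SE) and Ppp6r3, a phosphatase subunit, -1.47 ± 0.47 (SE). Both overlapped, and both lost their call without single replicates: Cntfr without brain replicate 1, 3 or 5, at -1.50, -1.61 and -1.38, and Ppp6r3 without any of 9 replicates, at -1.13 to -1.57.

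Smaller differences were also named for a brain mean larger in size than the eye mean. Srp54a, a subunit of the signal recognition particle, had brain ratios of -0.72, -0.51 and -0.40 and eye ratios of 0.01, 0.10 and 0.23, and a difference of 0.64 ± 0.08 (SE). Zfp428, a zinc finger gene, had 0.42 and Ptpre, a tyrosine phosphatase, -0.39. None of the 3 overlapped. Each of these signs depends on the direction of the brain arrays, which was inferred. With the brain sign turned, Gh had a difference of -1.81, Prl -2.85 and Srp54a -0.42. Zfp428 then had -0.055 and Ptpre 0.015, so the organ means of these 2 genes were nearly equal in size. On uncentred arrays with sighted RNA in Cy3 only, Srp54a had 0.31 and Zfp428 0.08, and neither passed. In Cy5 only, Ptpre had -0.04 and did not pass, and its 3 probes lay between -0.64 and -0.18.

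**Figure D5:**
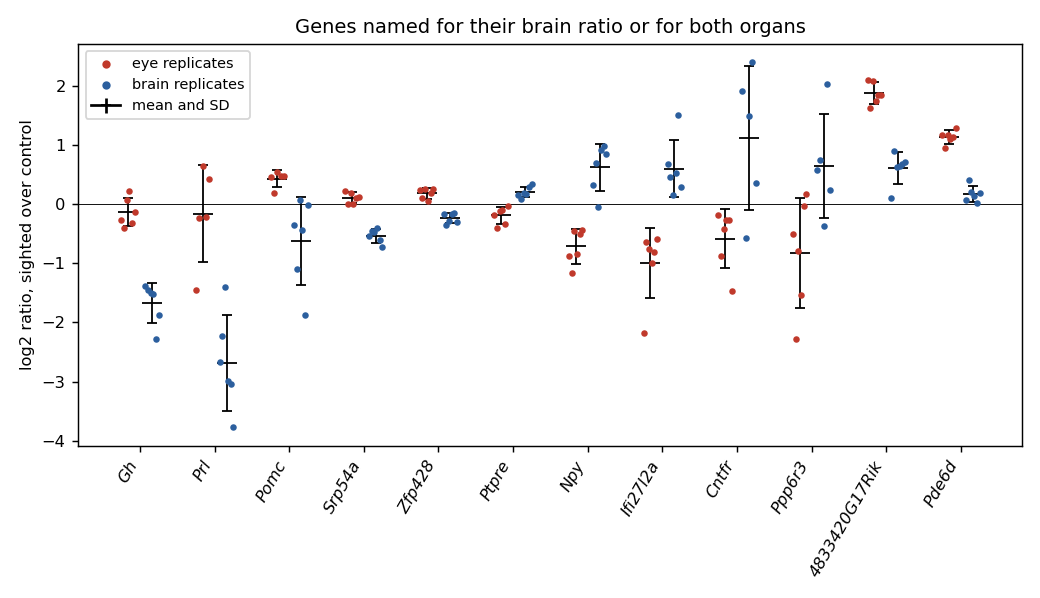
Log2 ratio of sighted over control RNA in each replicate (points) with mean and SD (black) for genes with a brain ratio as large as or opposite to the eye ratio, and for 4833420G17Rik and Pde6d, which were positive in both organs. Gh, Prl and Srp54a are below 0 in all brain replicates, and Npy and Ifi27l2a are below 0 in all eye replicates.

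In the lists of brain cells and regions described next no member passed in brain alone, and their counts stand beside shares of 10.9% higher and 6.72% lower over all genes. Of 15 genes of cortex, striatum and cerebellum, 2 were higher (13.3%), Rgs9 and Calb1 as given above, and 3 lower (20%): Foxp1 at -0.55, Tcf7l2 at -0.49 and the striatal signalling gene Ppp1r1b at -0.44. The list's median was -0.15. Of 10 myelin genes Mbp, a main protein of the sheath, was lower, at -0.35, with eye ratios from -0.51 to -0.15 and brain ratios from -0.21 to 0.13. The eye means were -0.48 for Foxp1, -0.36 for Tcf7l2 and -0.35 for Mbp. With the brain sign turned, Foxp1, Mbp and Rgs9 still passed, at -0.40, -0.35 and 1.665. Tcf7l2 then had -0.23 and Calb1 0.15, and neither passed. Of 7 choroid plexus and meninges genes 1 was higher (14.3%) and 2 were lower (28.6%). The growth factor gene Igf2 was higher, at 0.48, and the folate receptor gene Folr1 and the sulfate transporter gene Slc13a4 were lower, at -0.65 and -0.55. Slc13a4 lost its call without any of 10 single replicates, and Ttr, the defining gene of the choroid plexus, had -0.18 and did not pass. Of 9 neuropeptide genes, Adcyap1 was higher beside the lower Npy, at 0.40, and lost its call without eye replicate 1, 3 or 6 or brain replicate 2, 4 or 6.

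Matrix genes were called at shares near or below those over all genes, 3.45% higher and 6.9% lower. Fn1, which encodes fibronectin, and the protease gene Mmp14 were lower, at -0.69 and -0.34, and Mmp14 lost its call without any of 9 single replicates. Of 17 sterol and lipid synthesis genes 3 were higher and 3 lower, 17.65% each, against 10.9% and 6.72% over all genes. The list's median was -0.21. Beside Elovl4, the malic enzyme gene Me1 had 0.99 and Acly, which supplies acetyl groups for lipid synthesis, 0.41. The desaturase gene Scd2 had -0.43, and Hmgcs1 and Sc5d, of the cholesterol pathway, -0.33 and -0.46. With every array fitted on its own, Scd2 had -0.21 and did not pass.

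Agreement of sign between the organs also rests on the inferred direction of the brain arrays. With that direction, the mean of the 2 organs passed with 1 sign of both means for 1707 genes, or 11.0%, but 1603 of these also passed in the eye alone and 146 had a brain ratio with an unadjusted p under 0.05. Of the 1707, 78 had 1 sign in all replicates of both organs, and of all genes tested 80, or 0.516%. With the brain sign turned, the mean of both organs passed with 1 sign for 1756 genes, 1535 genes had a higher and 1079 a lower eye than brain ratio, and the 5 genes named next had opposite signs in the organs. 4833420G17Rik, an uncharacterised gene, had eye ratios of 1.63, 1.85 and 2.10 and brain ratios of 0.11, 0.66 and 0.90 as lowest, median and highest. Its eye mean was still 1.26 ± 0.13 (SE) above its brain mean, and 2.49 above it with the brain sign turned. Pde6d, which carries lipid-modified proteins to the outer segment, had 1.13 in eye and 0.17 in brain, with replicates from 0.94 and from 0.02 upward. Zdhhc12, 1810009A15Rik and Igsf21 had brain means of 0.15, 0.15 and 0.17 and eye means of 0.59, 0.96 and 0.79. The probes of the last 2 disagreed in the difference, at 0.17 and 2.10 for 1810009A15Rik and at -0.05 and 1.30 for Igsf21.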

How the data were processed

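The table deposited by the authors holds 1 log2 ratio, Cy5 over Cy3, per probe and array. Per the labels' protocols, labelling was indirect, on cDNA. The sources used here do not give the scanner, background correction or normalization. Array medians lay between -0.061 and 0.535 in eye and between 0.002 and 0.1 in brain, so the arrays were not all centred, whether they were scaled is unknown, and the direction is inferred. Values above 15, between 35 and 218 on an array, were treated as missing. Of 20794 probes 12771 had 1 symbol, 8023 had none and 0 had several. The 9030 symbols were all in the RefSeq table of GRCm38.p6, and probes of a gene were averaged.

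Where Cy3 marked the sighted RNA the sign was turned, and 2 consecutive arrays were averaged. A gene needed 5 of 6 replicates in each organ, and 1554 features did not have them. Limma 3.58.1 in R 4.3.3 fitted both organs with 1 shared spread (lmFit, eBayes, two-sided), with Benjamini-Hochberg adjustment at 0.05 over all 15499 genes. Same-numbered replicates of eye and brain correlated between -0.017 and 0.018, after the organ mean of each gene was removed. Values near 0 between 2 different organs cannot decide whether the same animals gave both. Since nothing in the labels ties an array to an animal, the fit has no block. The members and the 34 lists were chosen with earlier results of these data known.

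The text names, among called genes, the 10 largest differences each way with a symbol and no overlap, up to 3 members of each list by smallest p, 5 with a larger brain than eye mean, 5 of opposite sign, 5 with 1 sign in both organs, and 4 hormone and peptide genes. Other list members named were chosen after their values were seen. Alternatives are those in the closing section, and leaving out eye replicates 1 and 2 or brain replicates 5 and 6 and centring the arrays of a single dye were added after seeing the data. In data simulated for this comparison over 15499 genes, 200 genes were changed in each draw. Of those changed by 0.5, 48% were recovered, 84.8% at 1, 97.2% at 2 and 99.6% at 3, and 0.103% of unchanged genes were called. In the real data 17.6% of genes passed. The adjustment depends on the share of changed genes, so the simulated rates need not hold there. The number of arrays limits the precision.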

Additional observations from a re-analysis of the deposited data

Results flagged for a closer look

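Of 218 sets of 6 or 5 replicates of named genes, 16 had 1 replicate far from the others by Dixon's criterion, 6 in eye and 10 in brain. Chance marks about 1 in 20 such sets. In eye, replicate 1 was apart for Aldh3a1 at -2.15, Ifi27l2a at -2.17 and Stx3 at 1.72, replicate 2 for Rbpms at -0.97 and Pomc at 0.19, and replicate 5 for Hk1 at 1.58. In brain, replicate 3 was apart for Krt16 at -0.79, Apoe at -0.31 and Acadl at -0.40, and replicate 5 for Crybb2 at -1.90, Igtp at -0.36 and Ppara at 0.40. Brain replicate 4 was apart for Esrrb at -0.64, replicate 6 for Ltf at 0.75, replicate 2 for Gstm1 at 0.16 and replicate 1 for 4833420G17Rik at 0.11.

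The sighted over control ratio differed between eye and brain in limma for 1682 genes with a higher and 1041 with a lower eye ratio. Among named genes with opposite signs of the means, the eye minus brain difference was -1.70 for Cntfr, -1.47 for Ppp6r3, -1.33 for Npy, -1.59 for Ifi27l2a and 1.05 for Pomc.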

How the results depend on the processing

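Of 109 named genes, 76 had a value in all 32 alternatives and the others in at least 29. In the alternatives that gave them a value, 99 kept their sign and 49 passed each time, and 98 passed without each single replicate. With single replicates left out, the higher genes numbered 1364 to 1837 and the lower 854 to 1006. The genes that passed in the mean of both organs with 1 sign of both means, here called mean genes, numbered 1473 to 1759. In the main fit, 1603 of 1707 mean genes also passed in the eye alone, so they are not genes shown to change in both organs. The eye genes numbered 3308 to 4222 and the brain genes 0 to 2. With the replicate number as a block there were 1355 higher, 808 lower and 1371 mean genes. Of the named genes, 10 lost their call there. Whether same-numbered replicates share an animal is not known, so these data do not settle which fit applies. With heart in the fit, over 12492 genes, there were 956, 608 and 973. Sighted RNA in Cy5 only gave 3102 higher, 424 lower, 4696 mean, 6651 eye and 747 brain genes. Sighted RNA in Cy3 only gave 545 higher, 1519 lower, 3770 mean and 1297 brain genes. With these arrays centred the higher and lower genes were 1344 and 1202 (Cy5) and 1373 and 1115 (Cy3). The mean genes were then 3120 and 3256 and the brain genes 449 and 713. In a single dye orientation the dye effect of a probe is not averaged out and enters the ratio. The mean, eye and brain counts of 1 dye are therefore not counts of genes that differ between sighted and control. Centring all arrays gave 1606 higher and 1375 lower. The brain count was 2 with centred and scaled arrays, 3 with single probes and 2 without the 20% of genes with most spread. Signs reversed for Igsf21 with the probe nearest 0 (-0.054), for Mmp14 (0.033) and Rplp1 (0.10) with Cy5 only, and, with the brain sign turned, for Gh (-1.81), Prl (-2.85), Srp54a (-0.42), Zfp428 (-0.055), Ptpre (0.015), Cntfr (0.54) and Pomc (-0.19), by construction. With the brain sign turned, 15 further named genes kept their sign but lost their call. They were Calb1, Chgb, Cidec, Crybb2, Fn1, Folr1, Ifi27l2a, Igf2, Lim2, Lpl, Npy, Ppp6r3, Rplp1, Slc4a1 and Tcf7l2. With the probe nearest 0, 17 named genes lost their call, among them Hba-a1, Stat3, Mbp, Ptpre and Rora. The cause of the other changes was not tested. Ratios without intensities leave the signal over background of each gene unknown.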

Other observations

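Of 55 cytosolic ribosome genes, 9 were lower (16.4%, against 6.72% over all genes) and none higher (against 10.9%), with a median difference of -0.21, and Rplp0, the stalk protein gene, had -0.68. This count was 5 at the lowest with single replicates left out (eye 1, 4 or 5 or brain 4), and the list's median was negative in 5 of 6 eye replicates. Of 48 oxidative phosphorylation genes 1 was higher, Ndufa10 at 0.45, and 2 were lower, the muscle isoforms Cox6a2 and Cox7a1 at -0.78 and -0.63, with a median of -0.02. Cox7a1 lost its call without any of 8 single replicates. Of 20 fatty acid oxidation genes 5 were higher (25%) and 3 lower (15%). The regulator genes Ppargc1a and Ppara had 0.63 and 0.55, although their probes disagreed, while the enzyme gene Acadl had -0.53. The higher count was 3 without eye replicate 1, 2 or 5 or brain replicate 3.

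Of 16 clock genes, 2 were higher and 2 lower, 12.5% each, against 10.9% and 6.72% over all genes. Rora and Bhlhe41 were the higher genes, at 0.69 and 0.60, and Hlf and Per2 the lower, at -0.58 and -0.55, while Per1 had 0.08 and Dbp -0.31 and did not pass. Of 20 heat shock genes 4 were higher (20%), among them the chaperone gene Hsp90aa1 at 0.63, whose 2 probes disagreed at 0.066 and 1.18, and 2 lower (10%), the muscle chaperone genes Hspb8 and Bag3 at -0.95 and -0.63. Of 17 antioxidant genes, Gsta4, a glutathione transferase gene, had the lowest difference, -1.25 ± 0.15 (SE), with eye ratios from -1.91 to -0.89.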
